A study of Homo sapiens with 4 samples.

Results

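The RAS, RAF, MEK and ERK genes examined here were NRAS, HRAS, ARAF, BRAF, MAP2K1, MAP2K2 and MAPK3, 7 of the 24763 named genes in the files. They were taken by name, with every RefSeq transcript that maps to each symbol, and the rule that picks the transcripts uses no measured value. Together they had 13 of the 46699 RefSeq identifiers and 16 of the 53209 transcript records, because the 3 HRAS transcripts are listed on chromosome 11 and again on an alternate contig. Genes around the cascade are given as lists further on.

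RNA bound to miR-28-5p was captured by the miRNA pull out assay in DU-145, an androgen-independent human prostate cancer cell line that came from a brain metastasis. Both arms received a miR-28-5p duplex at 60 nM for 24 h. The miR-28CT arm (n = 2) was given an untagged duplex. The miR-28BIO arm (n = 2) was given a mix of duplexes with biotin at the 3′ end of the miRNA and a thiouridine, a base that crosslinks under long-wave ultraviolet light, at nucleotide 8 or 18. All cells were irradiated at 365 nm with 2 J/cm2, and 15 µg of total RNA from each sample was put on streptavidin beads. The miR-28CT libraries thus hold the background RNA that the beads retain without a tag, and more miR-28-5p was present in both arms. The replicates are described as biological, and all came from a single cell line.

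The cascade carries growth signals from receptors at the cell surface to the nucleus. A receptor with its adaptors loads RAS, a small GTPase, with GTP, and active RAS recruits RAF kinases to the membrane. RAF then phosphorylates the MEK kinases (MAP2K1 and MAP2K2), and these phosphorylate ERK, of which MAPK3 is one form. ERK in turn acts on kinases and transcription factors that drive proliferation, and it induces phosphatases and SPRY proteins that dampen the signal. A miRNA commonly recognises an mRNA through pairing of its seed (nucleotides 2 to 8) with the 3′UTR.

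The letters AGCTCCT, the DNA form of the stretch complementary to nucleotides 2 to 8 of miR-28-5p, were searched on the sense strand of the canonical GENCODE 44 transcript of each gene. They were present in the 3′UTR of 3 of the 7 genes, 1 RAS gene and both RAF genes. HRAS, MAP2K1, MAP2K2 and MAPK3 had none in the 3′UTR. The 3 stretches below, of 30 bases each in the sense of the mRNA, are shown because they are where the seed could pair in these genes, with the match in capitals.
NRAS: tctcacagagaAGCTCCTgctacttcccca
ARAF: taaattttgggAGCTCCTccatctccaatg
BRAF: tttattgatagAGCTCCTtctataatttcc
The NRAS stretch (hg38, chr1:114707960-114707989, minus strand) lies in exon 7, and its match starts 116 bases after the stop codon. The ARAF stretch (chrX:47571698-47571727, plus strand) lies in exon 16 and its match starts 252 bases after the stop codon. The BRAF stretch (chr7:140732770-140732799, minus strand) lies in exon 18 and its match starts 1809 bases after the stop codon. The quantified BRAF transcript, NM_004333, ends 1225 bases before this site, so no FPKM in the files covers it. In ARAF, 2 of the 3 quantified transcripts span the site, and NM_002524 of NRAS spans its own. The same letters occur in the 3′UTR of 13.8% of the 20020 canonical coding transcripts and in 15.5% of the tested genes that had such a transcript. The matches are positions of a letter string, and binding at them was not measured.

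Each library gave an FPKM per transcript, a read density corrected for the length of the transcript and the mapped reads of the library, as estimated by Cufflinks. The reads behind the FPKM, estimated from coverage, amounted to 13.0 to 17.9 M per library, of which 5.46 to 7.43 M lay on the listed transcripts. FPKM were summed per gene, scaled between libraries by a median-of-ratios factor (0.850 to 1.09) and compared on log2(scaled FPKM + 0.1), so that every fold change below is on that scale and is understated for low genes. Of 11311 genes whose scaled FPKM averaged 0.5 or more, limma called 0 higher (0% of genes tested) and 3 lower (0.0265%) in miR-28BIO at an adjusted p under 0.05, and these were the small nucleolar RNA genes SNORD12C, SNORD57 and SNORD58A. All 3 calls were lost when any 1 library was left out, with a pseudocount of 1, with no filter and with limma without a trend, so this background share rests on few libraries and settings. With the replicate number as a block in the fit, 42 genes were called higher and 22 lower. In the fit without a block, 251 genes were higher (2.22%) and 91 lower (0.805%) at an unadjusted limma p under 0.05. The median log2 difference over all tested genes was −0.08, with quartiles at −0.48 and 0.30. The epithelial markers KRT8, KRT18, KRT19, EPCAM and CDH1 were all detected, with a summed scaled FPKM of 91.8 and 232 in miR-28CT and 54.0 and 112 in miR-28BIO. KLK3, KLK2, TMPRSS2 and FOLH1, which mark androgen-responsive luminal cells, were listed at 0 in all 4 libraries. Of 10 leukocyte, endothelial and fibroblast markers, 7 were at 0 in every library and CD14, VWF and COL1A1 did not exceed 0.599. These are libraries of RNA recovered from the beads, so their FPKM give neither a number of cells nor the RNA per cell. RNA from before the beads was not analysed here.

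Of the 7 genes, 6 passed the filter on low values and none was called in either direction, where the same test called 0% of all genes higher and 0.0265% lower. The adjusted p (limma, Benjamini-Hochberg) was 1.00 for each of the 6. Their median log2 difference, miR-28BIO minus miR-28CT, was −0.41. This median was −0.052 without miR-28CT replicate 2 and −0.035 without miR-28BIO replicate 1, close to that of all genes, and −0.90 without miR-28CT replicate 1 and −0.82 without miR-28BIO replicate 2. In this fit without a block, only MAPK3 had an unadjusted p under 0.05 and arms that did not overlap, both in the direction of less RNA in miR-28BIO. With any 1 library left out, and with limma without a trend or no scaling, no member had an unadjusted p under 0.05. Arms that did not overlap were found in 1438 genes lower in miR-28BIO (12.7%) and in 1390 higher (12.3%), so 1 of 6 is close to the share among all genes. With 2 samples against 2, an exact two-sided permutation test of a single gene cannot give a p below 0.333.

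**Figure D1:**
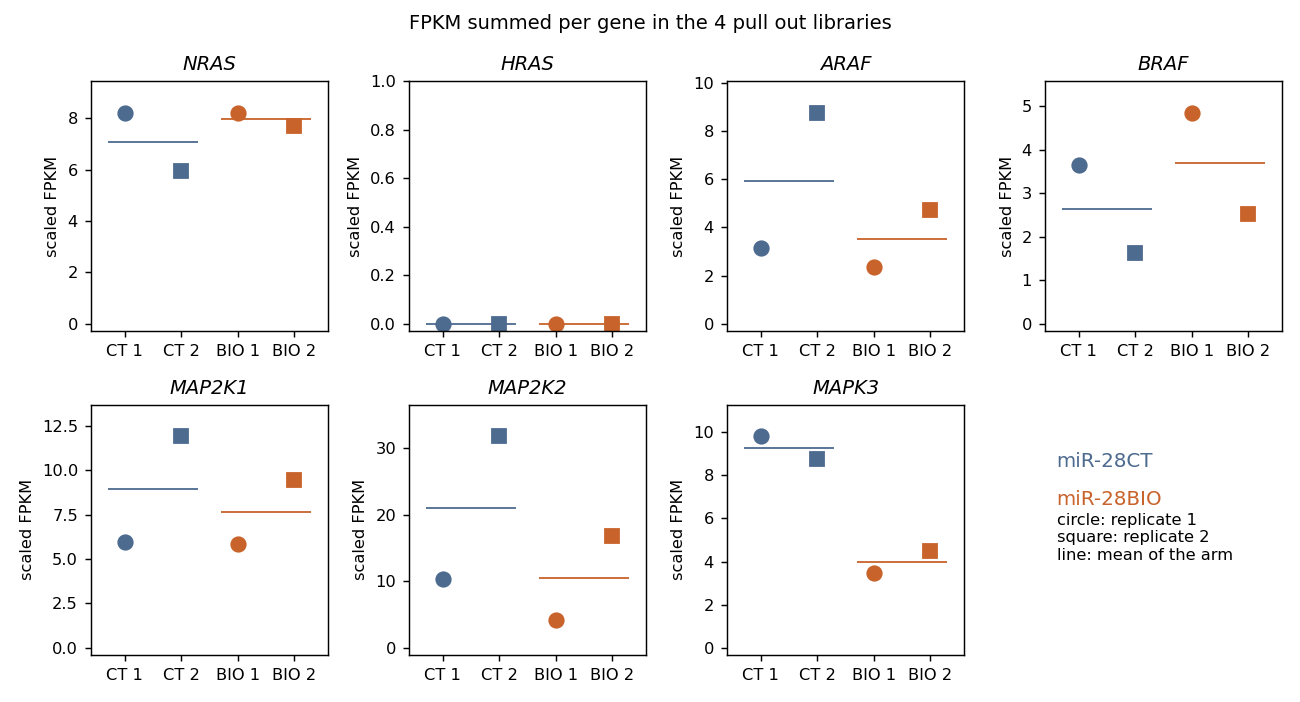
Scaled FPKM, summed over the transcripts of each gene, in miR-28CT (blue) and miR-28BIO (orange) replicates 1 (circles) and 2 (squares), with a line at the mean of each arm. Each vertical axis starts near 0 and has its own scale. MAPK3 is the only gene whose arms are apart, with 9.81 and 8.77 against 3.46 and 4.48, and HRAS is at 0 in all 4 libraries.

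Of the RAS genes examined, only NRAS was above 0. NRAS, a membrane GTPase often mutated in melanoma, measured 8.21 and 5.95 scaled FPKM in replicates 1 and 2 of miR-28CT and 8.19 and 7.70 in those of miR-28BIO. The value in miR-28CT replicate 2 was the low one, and the arms overlapped because miR-28CT replicate 1 lay above both miR-28BIO libraries. The means were 7.08 ± 1.60 and 7.95 ± 0.343 (SD, n = 2 each). The log2 difference was 0.18 (SE 0.42, 95% interval −0.98 to 1.34, limma, unadjusted p = 0.687), and it was −0.05 without miR-28CT replicate 2. The single NRAS transcript, NM_002524 (chr1:114704464-114716894, 4454 bases), had about 696, 293, 667 and 547 reads in the 4 libraries, in the same order. NRAS, whose 3′UTR holds a seed match, thus differed between arms by less than the spread between replicates, and the interval of its difference is wide.

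HRAS, the RAS form whose gene lies near the tip of the short arm of chromosome 11, was listed at 0 in all 4 libraries for its 3 transcripts NM_001130442, NM_005343 and NM_176795. Both copies of each record, on chr11:532242-535550 and on the alternate contig chr11_KI270832v1_alt, held this value. Of 742 coding genes with records on a primary chromosome and on an alternate contig, 570 (76.8%) were at 0 in all 4 libraries. Among 18044 coding genes with records on primary chromosomes only, the number was 4543 (25.2%). YWHAE and IER3, a 14-3-3 protein and an immediate early gene of the same pathway that also have such double records, were at 0 throughout as well. HRAS, at 0, was below the filter on low values and was left out of the fit. The part of the double records in its 0 was not tested, so this 0 is not read as a level of the mRNA.

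Both RAF genes varied more between replicates than between arms. ARAF, the RAF kinase encoded on the X chromosome, had 3.13 and 8.75 scaled FPKM in miR-28CT and 2.36 and 4.71 in miR-28BIO. Replicate 2 was the higher one in each arm and the arms overlapped. The means were 5.94 ± 3.98 and 3.53 ± 1.66 (SD, n = 2 each), and the log2 difference was −0.64 (SE 0.72, 95% interval −2.62 to 1.34, limma, unadjusted p = 0.424). Without miR-28CT replicate 2 it was 0.09.

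BRAF, the RAF kinase with the strongest activity and a frequent oncogene, moved the other way between replicates. Its scaled FPKM was 3.65 and 1.64 in miR-28CT and 4.85 and 2.52 in miR-28BIO, with replicate 1 the higher one in each arm and arms that overlapped. The means were 2.64 ± 1.42 and 3.69 ± 1.64 (SD, n = 2 each). The log2 difference of 0.50 (SE 0.63, 95% interval −1.24 to 2.23, limma, unadjusted p = 0.473) became −0.06 without miR-28CT replicate 2. BRAF was the only one of the 6 genes that was higher in miR-28BIO at both replicate numbers, by 0.40 and 0.59 on the log2 scale, which was true of 30.3% of all tested genes. The values rest on about 204, 53.5, 261 and 118 reads on NM_004333 (chr7:140734013-140924764, 2946 bases).

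Of the MEK genes, MAP2K1 differed little between arms. MAP2K1 had 5.97 and 11.9 scaled FPKM in miR-28CT and 5.82 and 9.46 in miR-28BIO, so that each replicate 1 was near 6 scaled FPKM and each replicate 2 was higher. The means were 8.94 ± 4.20 and 7.64 ± 2.58 (SD, n = 2 each). Its log2 difference was −0.18 (SE 0.57, 95% interval −1.76 to 1.40, limma, unadjusted p = 0.766), and it was 0.31 without miR-28CT replicate 2 and 0.16 without miR-28BIO replicate 1. The only transcript, NM_002755 (chr15:66386873-66491544, 2586 bases), had about 294, 339, 275 and 390 reads.

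MAP2K2, the other MEK kinase, had the highest mean of the 6 genes and the widest spread. It was at 10.3 and 31.8 scaled FPKM in miR-28CT and at 4.12 and 16.8 in miR-28BIO. The higher library of each arm was replicate 2, and miR-28BIO replicate 2 lay above miR-28CT replicate 1. The means were 21.1 ± 15.2 and 10.5 ± 8.96 (SD, n = 2 each) and the log2 difference was −1.11 (SE 0.99, 95% interval −3.83 to 1.61, limma, unadjusted p = 0.323). Without miR-28BIO replicate 1 the difference was −0.11 and without miR-28CT replicate 2 it was −0.30, whereas it was −2.11 without miR-28BIO replicate 2 and −1.92 without miR-28CT replicate 1.

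For MAP2K2 the deposited FPKM themselves were uneven. In miR-28CT replicate 2 the unscaled value of NM_030662 (chr19:4090322-4124129, 1733 bases) was 27.1, outside the 12.2 to 15.8 that Cufflinks gave as the interval of that same value, and in miR-28BIO replicate 2 it was 18.3, outside 11.3 to 14.7. In both replicates 1 the FPKM lay inside its interval. With the middle of each interval in place of the FPKM, an alternative chosen after seeing the data, the scaled values were 11.7 and 13.7 in miR-28CT and 4.75 and 12.2 in miR-28BIO, and the log2 difference was −0.73 (limma, unadjusted p = 0.262). NRAS, whose log2 difference was 0.016 with midpoints, was outside its own interval in miR-28CT replicates 1 and 2 and in miR-28BIO replicate 1, and BRAF in replicate 2 of each arm, whereas no transcript of ARAF, MAP2K1 or MAPK3 was. Over all records, 1857 and 4293 were outside in miR-28CT and 2169 and 3602 in miR-28BIO, more in replicates 2. The part of this in the differences between replicates was not tested.

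MAPK3 encodes the ERK form known as ERK1, the last kinase of the cascade. Its scaled FPKM was 9.81 and 8.77 in miR-28CT and 3.46 and 4.48 in miR-28BIO. Both miR-28BIO libraries were below both miR-28CT libraries, and the gap between arms was wider than the gap within either. The means were 9.29 ± 0.738 and 3.97 ± 0.724 (SD, n = 2 each), a log2 difference of −1.21 (SE 0.41, 95% interval −2.33 to −0.10) or 2.32-fold less on the scale of the test. The unadjusted p was 0.0394 and the adjusted p 1.00 (limma), and in the order of unadjusted p MAPK3 was number 277 of 11311 genes. The log2 difference was between −1.40 and −1.03 when each library was left out in turn. Without scaling, the FPKM were 10.4 and 7.46 against 3.65 and 4.88, still apart, and the unadjusted p was 0.0990. The counts were moderate, with about 275 and 177 reads in miR-28CT and 103 and 134 in miR-28BIO. Of the 5 epithelial markers, KRT8 and EPCAM also had arms apart and lower in miR-28BIO (12.7% among all tested genes), CDH1 was at 0.17, and the median log2 difference of the 5 was −0.79. The part of these markers in the MAPK3 value was not tested.

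At the level of transcripts, NRAS, BRAF, MAP2K1 and MAP2K2 each had 1 RefSeq record, and only ARAF and MAPK3 had several with an estimate above 0. Among 15587 transcripts tested, limma called 0 in either direction at an adjusted p under 0.05, while an unadjusted p under 0.05 was reached by 325 transcripts in the higher (2.09%) and 232 in the lower direction (1.49%). Of the 3 MAPK3 transcripts (chr16:30114105-30123309, minus strand), NM_001109891 and NM_002746 have the same ends and lengths of 1744 and 1876 bases, and NM_001040056 stops short at 30116837. NM_001109891 was at 5.12 and 3.46 scaled FPKM in miR-28CT and at 2.80 and 0 in miR-28BIO. NM_002746, the longest of them, was at 0 in replicate 1 of each arm and at 5.30 and 4.48 in replicate 2 of miR-28CT and miR-28BIO. NM_001040056 was at 4.70 and 0 in miR-28CT and at 0.657 and 0 in miR-28BIO. NM_001109891 was the 1 of the 9 tested member transcripts with arms apart, against 12% of tested transcripts lower in miR-28BIO in that way, and its log2 difference of −3.00 lay between −5.43 and −0.57 when each library was left out in turn. No 2 libraries shared the same split, and NM_002746 held 60.5% and 100% of the MAPK3 FPKM in replicates 2 and none in replicates 1. The MAPK3 sum was thus made up of different transcripts in different libraries.

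ARAF (chrX:47561100-47571921) showed the same unevenness. NM_001654, which spans the seed match, was at 1.83 and 7.47 scaled FPKM in miR-28CT and at 0 and 4.71 in miR-28BIO. The short NM_001256197, which ends at 47565974 and lacks the seed match, was at 1.29 and 1.28 in miR-28CT and at 1.33 and 0 in miR-28BIO. NM_001256196 has the same ends as NM_001654 and also spans the seed match. It was listed above 0 only in miR-28BIO replicate 1, at 1.03, and did not pass the filter. Within ARAF, the short form took 41.4% and 14.7% of the FPKM in miR-28CT and 56.4% and 0% in miR-28BIO. Neither tested ARAF transcript had arms apart. None of the 13 transcripts had the Cufflinks intervals of one arm wholly above or below those of the other, as was the case for 6.6% of all tested transcripts higher and 4.43% lower in miR-28BIO.

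**Figure D2:**
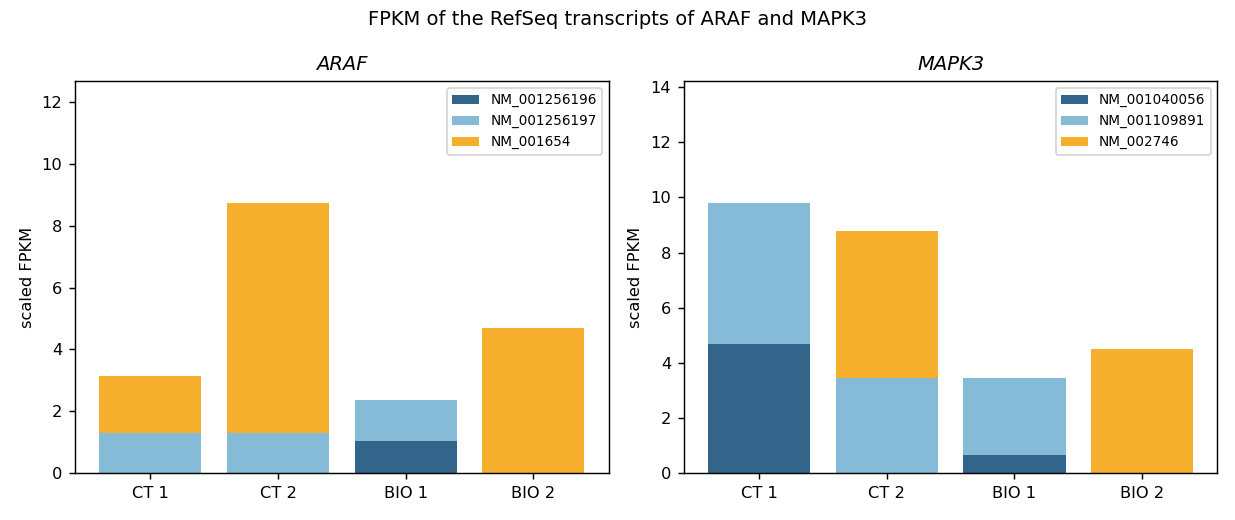
Scaled FPKM of the RefSeq transcripts of ARAF and MAPK3, stacked in 1 bar per library from 0 (CT, miR-28CT; BIO, miR-28BIO; replicates 1 and 2). The ARAF bars reach 3.13, 8.75, 2.36 and 4.71 and the MAPK3 bars 9.81, 8.77, 3.46 and 4.48, and the make-up of the bars differs from library to library.

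Set side by side per length, the mean scaled FPKM over the 4 libraries placed MAP2K2 first, followed by MAP2K1, NRAS, MAPK3, ARAF and BRAF. In this order every neighbouring pair overlapped over the libraries, and the arms ordered them differently. By arm means, MAPK3 (9.29) was second in miR-28CT, ahead of MAP2K1 (8.94) and NRAS (7.08), and in miR-28BIO MAPK3 (3.97) was followed by BRAF (3.69) and ARAF (3.53). BRAF, with no library above 4.85, lay below every library of MAP2K1 and NRAS, whose lowest values were 5.82 and 5.95. Among all 11311 genes ordered by mean level, MAP2K2 was number 1723 and BRAF number 6755.

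In 5 of the 6 genes the replicates of an arm differed by more than the arms did, which was also true of 67.8% of all tested genes. The median absolute log2 difference between replicates of an arm was 0.92 for the 6 genes and 0.86 for all genes, and between arms at one replicate number it was 0.57 and 0.46. MAPK3 was the exception, with replicate differences of −0.16 and 0.36 beside arm differences of −1.48 and −0.95. At both replicate numbers 4 of the 6 genes were lower in miR-28BIO, as 39.7% of all tested genes were. The labels do not say that libraries of one number were made together. Across tested genes, log2 values correlated at r = 0.832 and 0.772 between same-numbered libraries, and at 0.633 and 0.602 between replicates of an arm. With the replicate number as a block, the unadjusted limma p was 0.00530 for MAP2K2, 0.00561 for MAPK3 and 0.0402 for ARAF. None was called after adjustment, and 1158 genes higher and 1757 lower also had a p under 0.05.

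**Figure D3:**
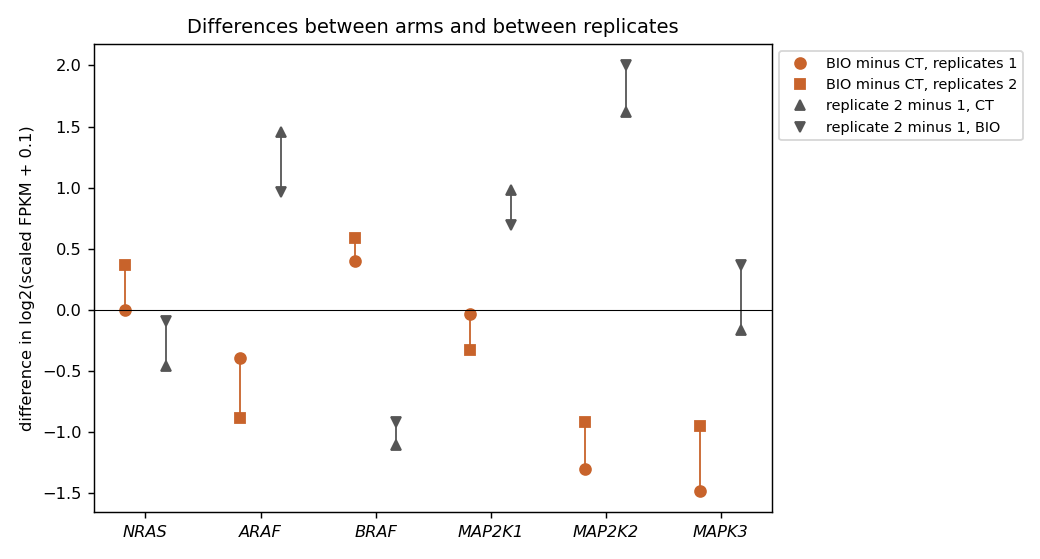
Differences in log2(scaled FPKM + 0.1) for the 6 tested genes, as miR-28BIO minus miR-28CT at each replicate number (orange) and as replicate 2 minus replicate 1 within each arm (grey triangles). For ARAF, BRAF, MAP2K1 and MAP2K2 the grey points lie farther from 0 than the orange ones, and for MAPK3 the orange points, at −1.48 and −0.95, lie farther.

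In the deposited FPKM the sign of the replicate difference ran with base composition. The canonical transcripts of NRAS and BRAF have 37.4% and 41.1% G and C, below the median of 47.6% over tested genes, and both were lower in replicate 2, by −0.46 and −1.11 (log2) in miR-28CT and −0.09 and −0.92 in miR-28BIO. With the interval midpoints described above, NRAS turned to higher in replicate 2, by 0.080 and 0.28, while BRAF was at −0.49 and −0.53. MAP2K1 (51.2%), ARAF (59.0%) and MAP2K2 (65.4%) were higher in replicate 2 of each arm, by 0.98, 1.46 and 1.62 in miR-28CT and by 0.69, 0.97 and 2.00 in miR-28BIO. With midpoints the MAP2K2 difference was 0.22 in miR-28CT and 1.35 in miR-28BIO. Over 10403 tested genes with a canonical transcript, GC content and the replicate 2 minus 1 difference had a Spearman rho of 0.697 in miR-28CT and 0.656 in miR-28BIO (Pearson r 0.662 and 0.622). These correlations are across genes that share the same libraries, and genes are not independent replicates. With interval midpoints they were 0.510 and 0.535. Genes above 60% GC had a median replicate difference of 1.85 and 1.67, and those under 40% had −0.85 and −0.73.

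MAPK3, at 61.0% GC, lay in the lower part of its class. Its replicate differences of −0.16 and 0.36 were at the 5.34th and 11.3rd percentiles of the 1553 genes above 60%. With interval midpoints they were −0.60 in miR-28CT and 0.21 in miR-28BIO. Between arms the relation to GC was weaker, with a rho of −0.243, and genes above 60% had a median log2 difference of −0.38 between miR-28BIO and miR-28CT, beside 0.02 in those under 40%. MAPK3 and MAP2K2, at −1.21 and −1.11, are both in the high-GC class. Their canonical transcripts, of 1787 and 1727 bases, are also the shortest of the 6, and transcript length had a rho of 0.441 with the arm difference across genes. The part of base composition and length in their values was not tested.

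**Figure D4:**
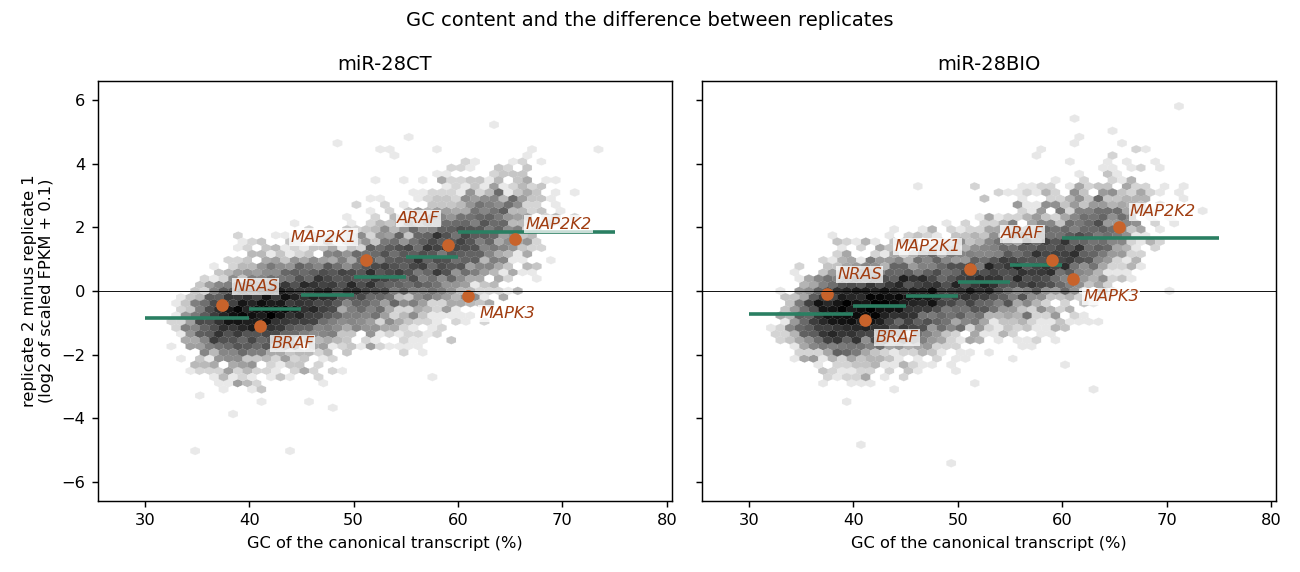
GC content of the canonical transcript (%) against the replicate 2 minus replicate 1 difference in log2(scaled FPKM + 0.1), in miR-28CT (left) and miR-28BIO (right), for 10403 genes (grey, darker where denser), with green lines at the median of each GC class and orange points for the 6 genes. Genes beyond 6 in either direction, 33 in miR-28CT and 25 in miR-28BIO, are not drawn. The medians go from −0.85 and −0.73 under 40% to 1.85 and 1.67 above 60%, and MAPK3 lies below the line of its class in each arm.

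The surrounding pathway was described by 67 genes in 7 lists, of which 63 were tested. None was called. Without a block, 2 genes had an unadjusted limma p under 0.05, both higher in miR-28BIO, beside 2.22% higher and 0.805% lower among all genes. There were 0 such genes when any 1 library was left out and 1 with limma without a trend. With the replicate number as a block, 9 of the 63 had an unadjusted limma p under 0.05, among them MAP2K7, RRAS and SHC1, which were lower. Among all tested genes 1158 were then higher and 1757 lower at that p. Arms were apart and higher in miR-28BIO in 10 pathway genes and apart and lower in 0, beside 12.3% and 12.7% of all tested genes. The higher count is near the share among all genes and the lower count is below it, which was not tested. The same shares apply to the counts in each list below. The median log2 difference of the 63 was 0.06, beside −0.08 over all tested genes. It was 0.21 without miR-28CT replicate 1 and −0.037 without miR-28CT replicate 2. With no scaling it was 0.23, beside 0.079 over all genes. The match AGCTCCT was in the 3′UTR of 10 of the 63 (15.9%), and the median log2 difference was 0.10 with it and 0.04 without. The 10 were EGFR, FRS2, RASAL2, DAB2IP, RAP1A, RAP1B, IQGAP1, YWHAZ, DUSP3 and RPS6KA1.

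Upstream of RAS, the 11 receptors, adaptors and exchange factors had a median of 0.08. This median was −0.27 without miR-28BIO replicate 1 and −0.066 without miR-28CT replicate 2. SOS1, the exchange factor that loads RAS with GTP, was at 4.35 and 2.16 scaled FPKM in miR-28CT and 10.9 and 8.01 in miR-28BIO. Both miR-28BIO libraries were above both miR-28CT libraries, with a log2 difference of 1.57 (SE 0.53, limma, unadjusted p = 0.0409, adjusted p = 1.00). The receptor MET followed at 0.26, and the phosphatase PTPN11 (−0.36) and the adaptor SHC1 (−0.77) were the lowest. Without miR-28CT replicate 2, SHC1 was at −0.066. SOS1 has no seed match in its 3′UTR or coding sequence.

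Among 10 proteins that switch off or hold back RAS, none passed an unadjusted p of 0.05, 3 had arms apart and higher (12.3% among all tested genes), and the median was 0.11. SPRY1, a feedback inhibitor, was at 0.503 and 0.617 scaled FPKM in miR-28CT and at 0.732 and 2.36 in miR-28BIO (log2 difference 1.12, limma, unadjusted p = 0.215), and the difference was 0.34 without miR-28BIO replicate 2 and 1.90 without miR-28BIO replicate 1. NF1, which speeds GTP hydrolysis by RAS, was at 12.2 and 10.4 against 16.6 and 13.7 (0.42). RASA2 and RASA1, GTPase-activating proteins too, had the lowest values at −0.20 and −0.23. The 7 GTPases closest to RAS had a median of −0.25 and none had arms apart. This median was 0.31 without miR-28CT replicate 1 and 0.051 without miR-28BIO replicate 2. These GTPases ranged from MRAS at 0.17 and RAP1B at 0.14 to RAP1A at −0.49 and RRAS at −0.64. Each of these values changed sign in 2 of the 4 fits with 1 library left out.

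The scaffolds, chaperones and RAF regulators had a median of 0.04 over 10 tested genes, with 1 whose arms were apart. This median was 0.45 without miR-28CT replicate 1 and 0.33 without miR-28BIO replicate 2. It was −0.37 without miR-28CT replicate 2 and −0.26 without miR-28BIO replicate 1. KSR1, which holds RAF, MEK and ERK together, and SHOC2, which helps activate RAF, were highest at 0.56 and 0.55. KSR1 was at −0.14 without miR-28CT replicate 1. SHOC2 was at −0.25 without miR-28CT replicate 2 and −0.046 without miR-28BIO replicate 1. The kinase chaperone CDC37 and PEBP1, a RAF inhibitor, were lowest at −0.33 and −0.57. CDC37 was at 0.24 without miR-28CT replicate 1, and PEBP1 at 0.16 without miR-28BIO replicate 1. YWHAE could not be tested, being listed at 0.

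Downstream of ERK, the 4 tested phosphatases lay between 0.04 for DUSP7 and −0.36 for DUSP3, with DUSP5 at 0.01 and DUSP6, a cytoplasmic ERK phosphatase, at −0.30. DUSP4 was below the filter. The 13 tested ERK substrates and ERK-induced genes had a median of 0.17, and 2 had arms apart and higher. RPS6KA1, a kinase activated by ERK, was highest at 1.12 with overlapping arms (2.34 and 8.57 against 7.41 and 13.2 scaled FPKM), and the transcription factor ELK4 was at 0.49. Without miR-28CT replicate 1, RPS6KA1 was at 0.21, below ELK4 at 0.77. ETV4 and FOSL1, transcription factors induced by ERK, were lowest at −0.33 and −0.55.

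In the parallel JNK, p38 and ERK5 modules, 8 kinases were tested and the median was 0.16. This median was −0.011 without miR-28CT replicate 1 and −0.037 without miR-28BIO replicate 2. It was 0.43 without miR-28CT replicate 2. MAPK14, the p38α kinase, was at 5.95 and 10.4 scaled FPKM in miR-28CT and at 23.3 and 49.0 in miR-28BIO. Its arms were apart, and the log2 difference of 2.09 (SE 0.62, limma, unadjusted p = 0.0280, adjusted p = 1.00) was the highest of the 63. It has no seed match in its 3′UTR or coding sequence either. MAPK8 followed at 0.57, and MAPK9 and MAP2K7 were lowest at −0.26 and −0.82, the latter at −0.15 without miR-28BIO replicate 1. MAP2K6 was below the filter.

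**Figure D5:**
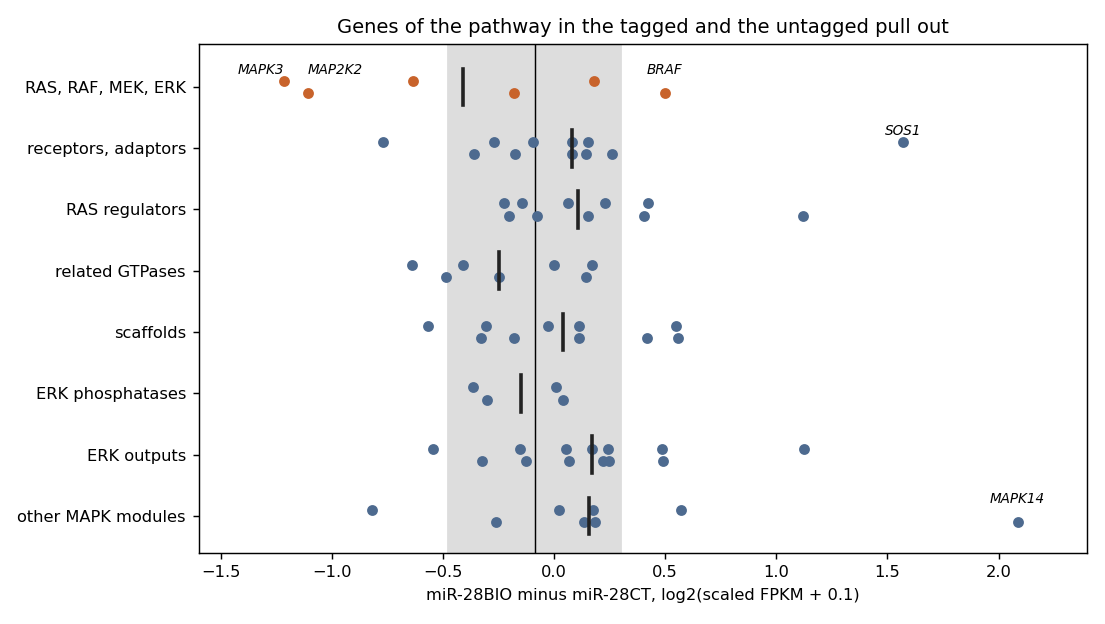
Log2 difference, miR-28BIO minus miR-28CT, of each tested gene of the core (orange) and of the 7 pathway lists (blue), with a black bar at the median of each list. The vertical line is the median of all 11311 genes (−0.08) and the grey band spans their quartiles (−0.48 to 0.30). The median of the core is at −0.41, though at −0.052 without miR-28CT replicate 2 and −0.035 without miR-28BIO replicate 1, and SOS1 and MAPK14 are at 1.57 and 2.09.

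The genes most like the core were sought among 5027 genes outside the lists whose scaled FPKM averaged 5 or more, by the root mean square difference of log2 profiles, each centred on its own mean, over the 4 libraries. The closest to the mean profile of the 6 measured genes were SNRNP70 (0.0416), NFS1 (0.0516) and TLN1 (0.0519). For single genes they were NUP153 for NRAS (0.0369), DAPK3 for ARAF (0.0167), PPFIA1 for BRAF (0.0346), TMEM69 for MAP2K1 (0.0139), H1-3 for MAP2K2 (0.0410) and MYL12B for MAPK3 (0.0552). MYL12B, a myosin light chain, was at 111 and 109 scaled FPKM in miR-28CT and 42.4 and 52.0 in miR-28BIO. The likeness rests on 4 libraries and is a description only.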

How the data were processed

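Per the submitters' processing notes and the study's methods, the authors checked 50-base single reads with FastQC 0.10.1, trimmed them with cutadapt, aligned them to hg38 with TopHat2 2.0.9 and ran Cufflinks 2.1.1 and Cuffdiff. The authors deposited, per library, the FPKM of each RefSeq transcript with its interval and status, and the deposited coverage and transcript length, used here only to estimate reads (coverage times length over read length). Cuffdiff needs the reads and was not repeated.

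Arms and replicate numbers came from the sample labels. Symbols were taken from RefSeq's GRCh38 table (97.1% of records). Records that Cufflinks marked OK in every library were summed per symbol and scaled by median of ratios. Genes averaging 0.5 scaled FPKM or more were compared on log2(scaled FPKM + 0.1) with limma 3.58.1 (lmFit, eBayes with trend, no block, R 4.3.3), and p-values were adjusted by Benjamini-Hochberg over all genes tested. Intervals are 95% intervals of the fit. The scripts were tested on simulated data. Figures and sequence searches used Python 3.11.15, pandas 2.3.3 and matplotlib 3.10.9. Records of chromosomes and contigs keep hg38 coordinates, and sites and GC content are those of canonical GENCODE 44 transcripts.

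The members, pathway lists and tests were chosen with earlier results of these data known. Named are all members, their transcripts averaging 0.5 scaled FPKM or more (the others by count), and, in each pathway list, the 2 genes with the highest and the 2 with the lowest log2 difference. NM_001256196 of ARAF, the HRAS transcripts, the genes called and the pathway genes with a seed match are named outside this rule, after their values were seen. So are KRT8, EPCAM and CDH1, and YWHAE, IER3, DUSP4 and MAP2K6, which were not tested. Alternatives were other pseudocounts, filters and scalings, transcripts of any status, no trend, the replicate block, other criteria for a call, interval midpoints (added after seeing the data) and leaving out each library. Depth per transcript is an estimate, so no counting interval is given. One marker gene is not reported here.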

Additional observations from a re-analysis of the deposited data

How the results depend on the processing

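For the 6 tested genes of the core, the direction and the absence of a call were the same in all 60 combinations with another pseudocount, filter, scaling, status rule, trend setting, midpoint or replicate block. With the replicate block, 42 genes were called higher and 22 lower among all genes (no block, 0 and 3), but no member: the adjusted p (limma) was 0.0844 for MAPK3, 0.0823 for MAP2K2, 0.176 for ARAF, 0.200 for BRAF, 0.584 for NRAS and 0.564 for MAP2K1. Before adjustment, 3 members had a limma p under 0.05 with the block (MAP2K2 0.00530, MAPK3 0.00561 and ARAF 0.0402), as did 1158 genes in the higher and 1757 in the lower direction (no block, 251 and 91) and 9 of the 63 pathway genes (no block, 2), among them MAP2K7, RRAS and SHC1, which were lower. Deviations from the arm means of same-numbered libraries correlated across genes (Pearson r = 0.623, Spearman rho 0.830). With 2 numbers, the labels do not establish that the numbers pair the samples. Without scaling, the median of all genes was 0.079 in place of −0.084 and that of the members −0.24 in place of −0.41. The 3 genes called lower became 0 with a pseudocount of 1, with no filter, with limma without a trend, with interval midpoints and (0 to 0) without any 1 library. Counting arms that do not overlap gave 1390 genes higher and 1438 lower, 1800 and 1872 transcripts, 10 pathway genes and 1 member, and Cufflinks intervals apart gave 1028 and 691 transcripts. MAPK3 NM_002746 turned to 0.055 with no scaling and 0.015 with interval midpoints.

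Leaving out each library in turn turned 5 of 24 member values. The log2 difference ranged from −0.047 to 0.41 for NRAS, −1.37 to 0.091 for ARAF, −0.056 to 1.05 for BRAF and −0.67 to 0.31 for MAP2K1. For transcripts it ranged from −5.26 to 0.33 (ARAF NM_001654), −3.80 to 0.041 (ARAF NM_001256197), −4.12 to 0.13 (MAPK3 NM_001040056), −5.43 to −0.57 (MAPK3 NM_001109891) and −3.00 to 2.76 (MAPK3 NM_002746). Of the 112 values of named pathway genes, 28 turned, with ranges of CDC37 −0.90 to 0.24, DUSP3 −0.83 to 0.10, DUSP5 −0.54 to 0.56, DUSP6 −0.73 to 0.12, DUSP7 −0.70 to 0.78, ETV4 −1.11 to 0.46, FOSL1 −1.18 to 0.091, KSR1 −0.14 to 1.26, MAPK9 −0.56 to 0.040, MRAS −0.17 to 0.51, PEBP1 −1.29 to 0.16, RAP1A −1.85 to 0.87, RAP1B −0.055 to 0.34, RASA1 −0.61 to 0.16, RASA2 −0.99 to 0.58, RRAS −1.55 to 0.27 and SHOC2 −0.25 to 1.34. Without a turn, RPS6KA1 ranged from 0.21 to 2.04, SPRY1 from 0.34 to 1.90, SHC1 from −1.47 to −0.066, MAP2K7 from −1.49 to −0.15, PTPN11 from −0.70 to −0.020, MET from 0.093 to 0.43, ELK4 from 0.21 to 0.77, MAPK8 from 0.29 to 0.85 and MAP2K2 from −2.11 to −0.11. The cause was not tested.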
